A study of Mus musculus with 4 samples.

Results

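The cells described here are kidney cells with the transcript pattern of neutrophils, taken from 4 droplet single-cell RNA sequencing libraries of mice with serum-induced glomerulonephritis. No cell annotation was used. Cells were chosen by a gate on raw UMIs (unique molecular identifiers, each counting 1 captured RNA molecule): at least 200 genes, at least 20 UMIs of S100a8 and S100a9 together, at least 2 UMIs of Csf3r, Cxcr2, Retnlg and G0s2 together, under 2 UMIs of the Cd3 genes, under 10 of the C1q genes and under 4 of Chil3, F13a1, Vcan and Ly6c2 together. The gate took 53 of 15777 kept cells, or 0.336%. Of these, 46 also carried marker transcripts of another cell type, and 7 did not.

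All mice were male, 9 weeks old, of strain C57Bl/6 and genotype Pax2.rtTA;TetO.Cre;R26.Confetti, in which a doxycycline-dependent Cre under the Pax2 promoter recombines a multicolour reporter. Pax2 marks renal epithelium, so the reporter is not directed at blood cells. Every animal received anti-GBM serum, an antibody preparation against the glomerular basement membrane that causes crescentic glomerulonephritis, so no untreated kidney was available for comparison. From day 1 after the serum, control animals were given distilled water (vehicle). The treated groups were given 15 mg/kg panobinostat or 10 mg/kg givinostat, which inhibit histone deacetylases, or 60 mg/kg ruxolitinib, which inhibits the Janus kinases. All animals were sacrificed on day 7. Each group had 2 animals and 1 library, and whether both animals were pooled into that library is not stated.

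Neutrophils are short-lived granulocytes that leave the blood within hours of an immune complex insult and enter the glomerulus through their receptors for chemokines, complement fragments and antibody Fc parts. They carry ready-made granule proteins, produce reactive oxygen through the NADPH oxidase, and transcribe few genes, among them those of the calprotectin subunits S100a8 and S100a9 and of interleukin 1 beta. In antibody-mediated glomerulonephritis they are known for an early wave of capillary injury that precedes the larger monocyte and macrophage infiltrate.

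The libraries held 3930, 4396, 3472 and 3979 kept cells (vehicle, panobinostat, givinostat and ruxolitinib, the order used throughout), with 36861583 to 45075309 UMIs each. Their lowest kept UMI counts per cell differed, at 3723, 2920, 5272 and 3817, a gap that can set the share of a cell type with little RNA. Gated cells had a median of 9585, 4921, 13445 and 6734 UMIs, and between 3425 and 44719. The median mitochondrial share of UMIs was 12.3%, 4.76%, 6.17% and 2.76%, and 20% or more in 1, 3, 3 and 3 gated cells. Across libraries 20 barcode sequences were shared, none of them by a gated cell.

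Neutrophil-gated cells were rare in every library, and no difference in their share between libraries exceeded counting error. There were 10, 12, 15 and 16 gated cells. These made up 0.254% of kept cells in vehicle (exact Clopper-Pearson 95% interval 0.122 to 0.467), 0.273% in panobinostat (0.141 to 0.476), 0.432% in givinostat (0.242 to 0.712) and 0.402% in ruxolitinib (0.230 to 0.652). The 4 intervals overlap, as the plot of shares shows. The share relative to vehicle was 1.07 in panobinostat (exact conditional binomial 95% interval 0.425 to 2.77), 1.70 in givinostat (0.714 to 4.23) and 1.58 in ruxolitinib (0.674 to 3.90), and each interval includes 1. All intervals here cover counting error only. With 1 library per group no test of the treatments was possible, and the 3 ratios share the vehicle library. When every library was held to the highest of the 4 UMI floors, 9, 5, 15 and 10 cells remained and the ratios were 0.579, 1.37 and 1.02.

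**Figure D1:**
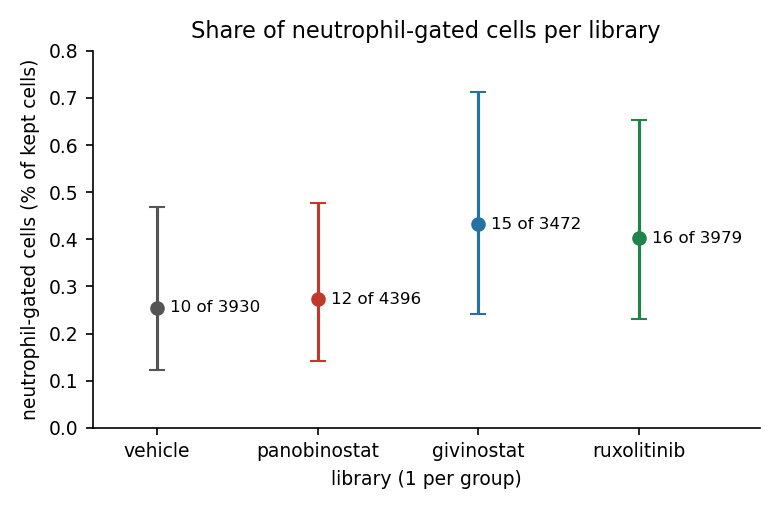
Neutrophil-gated cells as a percentage of kept cells (y axis) in the 4 libraries (x axis, 1 per group). Points are shares with gated and kept cells beside them, and bars are exact 95% binomial intervals covering counting error only; the shares run from 0.254% to 0.432% and all intervals overlap.

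Because the gate used S100a8, S100a9, Csf3r, Cxcr2, Retnlg and G0s2, their levels describe the cells and support nothing. S100a8 (chr3:90668978-90670035, plus strand) and S100a9 (chr3:90692632-90695721, minus strand; GRCm38, GENCODE annotation) encode the subunits of calprotectin, the most abundant cytosolic protein of neutrophils, and were in all 53 cells. Their summed UMIs per cell had a median of 60.5 (24 to 204), 82 (22 to 280), 183 (27 to 1458) and 55.5 (22 to 372). The givinostat cells were thus the highest by median UMIs, and that library also had the deepest gated cells. As a share of a cell's UMIs the sum ran from 0.0863% to 25.1%, with a median of 1.15%. By this share the panobinostat cells had a slightly higher median than the givinostat cells. The lowest sums inside the gate were 22, 22 and 23 UMIs, the highest outside it was 18, and 5 cells that met the other criteria lay between 10 and 19.

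The 250 bases before the RefSeq transcription start of the 2 calprotectin genes are shown because both transcripts varied together over the gated cells (Spearman rho 0.83 over 47 cells thinned to 4351 UMIs each, cells that share libraries and were chosen on these genes). Capitals mark matches to TTNNGNAA, a core of the C/EBP motif, and to GAGGAAG, a core of the PU.1 motif, on either strand; the marked matches do not overlap. The sequences are from RefSeq, GRCm38.p6, at chr3:90668821-90669070 (plus strand) and chr3:90695722-90695971 (minus strand), each 5′ to 3′. The S100a8 window ends inside the GENCODE gene given above, because the 2 annotations place the start differently. Positions are counted from the RefSeq start.
S100a8: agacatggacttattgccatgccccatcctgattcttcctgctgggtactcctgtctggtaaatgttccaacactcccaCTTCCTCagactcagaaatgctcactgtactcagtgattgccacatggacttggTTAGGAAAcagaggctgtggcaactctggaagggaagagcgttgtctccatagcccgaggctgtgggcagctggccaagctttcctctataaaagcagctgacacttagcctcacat
S100a9: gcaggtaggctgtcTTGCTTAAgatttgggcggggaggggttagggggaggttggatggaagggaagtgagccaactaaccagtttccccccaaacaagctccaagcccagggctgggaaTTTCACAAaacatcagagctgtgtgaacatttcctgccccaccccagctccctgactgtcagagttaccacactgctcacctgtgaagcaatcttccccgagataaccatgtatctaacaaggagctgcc
S100a8 held 1 C/EBP match (TTAGGAAA, bases -117 to -110 from the start) and 1 PU.1 match on the opposite strand (CTTCCTC, -171 to -165). S100a9 held 2 C/EBP matches, both on the opposite strand (TTGCTTAA at -236 to -229 and TTTCACAA at -130 to -123), and no PU.1 match. Of 32851 promoters of the same length, 36.8% held the C/EBP letters and 10.6% the PU.1 letters, so a match is a description of these windows and no more.

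**Figure D2:**
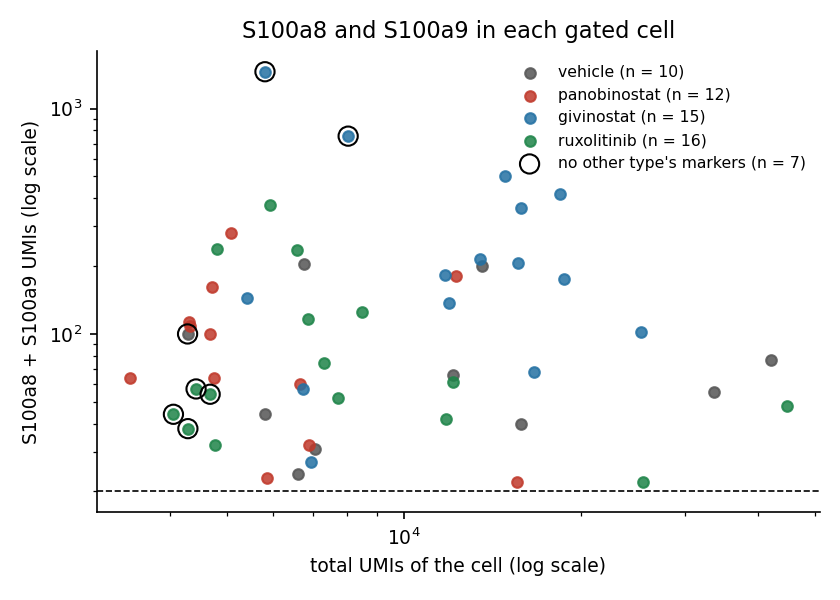
S100a8 plus S100a9 UMIs (y axis, log scale) against total UMIs (x axis, log scale) of each of the 53 gated cells, coloured by library. The dashed line is the gate minimum of 20 UMIs, and rings mark the 7 cells without another cell type's markers, which reach from 38 to 1458 calprotectin UMIs at 4061 to 8042 total UMIs.

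The 4 other gate genes were sparser. Csf3r, the receptor for granulocyte colony-stimulating factor, had a UMI in 52 of 53 cells. Cxcr2, the receptor for CXCL1 and CXCL2, had one in 37, and Retnlg, a resistin-like protein of granulocytes, in 30. The Retnlg level of the givinostat cells, 3300 CPM (UMIs per 1000000 UMIs of the library's gated cells), rested on 1 cell with 340 of 645 UMIs and was 1608 CPM without it. G0s2, an inhibitor of lipolysis, was in 40 gated cells but also in 59.6% of 6521 tubule-rich cells (ungated cells with at least 5% tubule marker UMIs). Without G0s2, 51 of the 53 cells still had 2 or more UMIs of the other 3 genes. The lowest sum of all 4 was 3, in 3 cells, and no cell that met the other criteria fell short of the minimum of 2. On the monocyte genes the limit fell within a spread of values: 42 gated cells had 0 UMIs and 3 had the highest value of 3, while 15 cells with 4 to 153 were left out.

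Of the neutrophil transcripts outside the gate, Mmp9 and Il1r2 were each present in most gated cells, while most granule genes, given below, were not. Mmp9, the gelatinase of neutrophil granules (chr2:164940780-164955850), had a UMI in 46 of the 53 cells. It had one in 1 of 794 monocyte-gated cells (at least 4 UMIs of the monocyte genes, calprotectin under 20) and in 0 of 761 macrophage-gated cells (at least 10 UMIs of the C1q genes). Il1r2, the decoy receptor for interleukin 1 (chr1:40074079-40125231), had a UMI in 50 gated cells. A UMI of at least 1 of these 2 genes was found in 52 cells, and of both in 44. The single cell with neither was the ruxolitinib cell with 44719 UMIs, of which 7.15% were tubule markers. Shares of cells with a UMI move with depth, so they were also taken after thinning each cell to 4351 UMIs, which left out 6 gated cells (1, 3, 0 and 2). Thinned, Mmp9 was found in 78.7% of 47 gated cells (exact 95% interval 64.3 to 89.3), 0.134% of 746 monocyte-gated cells and 0.101% of 5939 tubule-rich cells. The tubule-rich share is given for comparison, and the part of free RNA in these shares was not tested. Thinned, Il1r2 was found in 87.2% of gated cells (74.3 to 95.2), 14.5% of monocyte-gated and 5.90% of 661 macrophage-gated cells. Ly6g, Mpo, Elane, Camp and Ngp, further genes of the lineage, were not analysed here.

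Of 14 measured identity genes outside the gate, 11 had a UMI in at least 27 of the 53 cells, which holds for 11.5% of the 13101 genes with any UMI in gated cells. On the mean over cells of each cell's CPM, 12 of the 14 were higher in the neutrophil gate than in both the monocyte and the macrophage gate. Of all 13101 genes 45.9% were, and cells chosen by a gate differ from others by construction. The 6 members with the most UMIs were S100a11, Msrb1, S100a6, Il1r2, Slpi and Clec4e. Msrb1, a methionine sulfoxide reductase, was in all 53 gated cells but also in 74.1% of thinned tubule-rich cells. Slpi, an inhibitor of neutrophil elastase, was in 37 gated cells, and thinned in 63.8% against 33.6% of monocyte-gated and 0.303% of macrophage-gated cells. Clec4e (Mincle), a receptor for microbial glycolipids and dead cells, was in 43. Of the other members, the lectin receptor Clec4d was in 46 cells, the activating receptor Trem1 in 44 and the peptidoglycan-binding Pglyrp1 in 44. Thinned, Clec4d was in 66.0% of gated, 20.5% of monocyte-gated and 2.72% of macrophage-gated cells, Trem1 in 66.0%, 20.8% and 1.97%, and Pglyrp1 in 72.3%, 16.6% and 1.51%. The 3 members in fewer than 27 cells were Asprv1 in 18, Lrg1 in 14 and Wfdc17 in 14. Thinned, Wfdc17 was in 23.4% of gated cells, below the 68.0% of monocyte-gated and 59.9% of macrophage-gated cells. The members singled out here, and 2 genes outside the list, were chosen after their values were seen. Outside the list, the cystine carrier Slc7a11 was in 40 cells and the itaconate-producing enzyme Acod1 in 35. Thinned, Slc7a11 was in 59.6% of gated, 13.4% of monocyte-gated and 4.84% of macrophage-gated cells. Thinned, Acod1 was in 48.9% of gated cells and in 1.07%, 0.303% and 0.0505% of monocyte-gated, macrophage-gated and tubule-rich cells. Hdc, the histamine-forming enzyme often used as a granulocyte marker, did not separate the cells in this tissue: thinned, it was in 59.6% of gated cells and in 62.7% of tubule-rich cells.

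**Figure D3:**
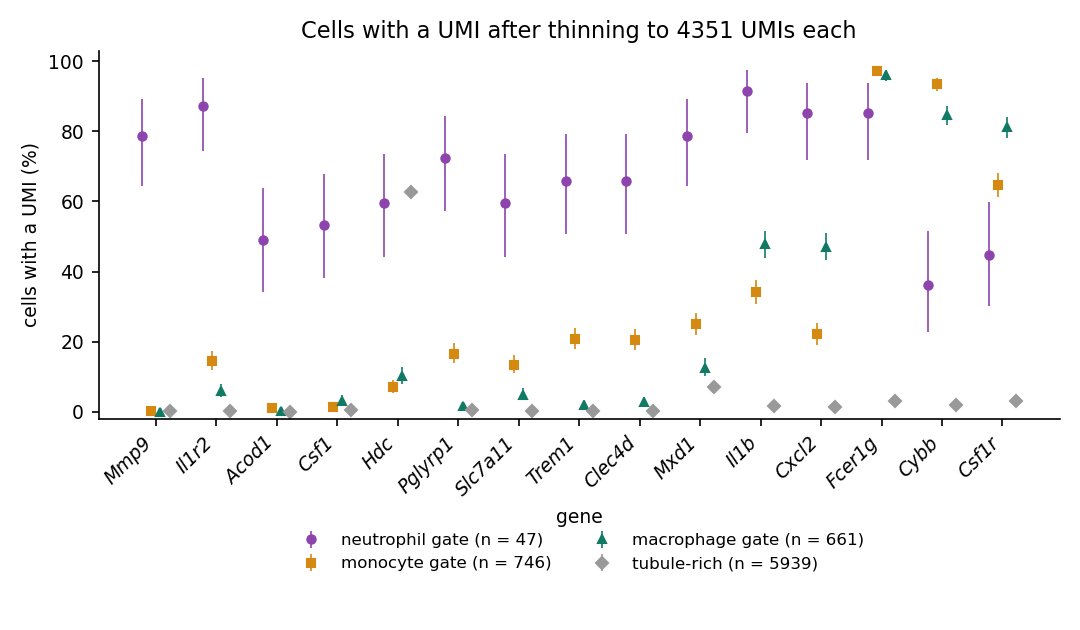
Percentage of cells with a UMI (y axis) of 15 genes (x axis) in neutrophil-gated, monocyte-gated, macrophage-gated and tubule-rich cells, each thinned to 4351 UMIs. Bars are exact 95% binomial intervals over cells; Mmp9 and Il1r2 stand at 78.7% and 87.2% in the neutrophil gate, Hdc is as frequent in tubule-rich cells, and Cybb and Csf1r are less frequent in the neutrophil gate than in the other myeloid gates.

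Most gated cells also carried transcripts of other kidney or blood cells, and the counts varied between libraries. Tubule markers made up at least 1% of UMIs in 24 of 53 cells, namely in 7 of 10, 3 of 12, 9 of 15 and 5 of 16. Their share in those cells ran from 1.30% to 10.9%, while the highest cell under the limit had 0.683%. Tubule-marked cells were deeper (median 12196 UMIs) and had a median mitochondrial share of 17.8%. In the vehicle cells these were proximal tubule transcripts: Kap, an androgen-regulated kidney protein, had a library level of 21006 CPM and Umod, the thick limb protein uromodulin, 20.3 CPM. In the givinostat cells the more distal Umod reached 2768 CPM and Klk1, a kallikrein of the connecting tubule, 7870 CPM, beside 1735 CPM of Kap. The same limit was met by 8.69% of monocyte-gated and 23.7% of macrophage-gated cells.

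Transcripts listed here as markers of patrolling monocytes, the Ly6c-low cells that crawl along the vessel wall, formed the next group. A list of 9 such genes, chosen after the data were seen (Csf1r, Cx3cr1, Cd300e, Treml4, Spn, Pou2f2, Adgre1, Clec4a3 and Eno3), made up at least 0.1% of UMIs in 16 gated cells. These were 1 of 10, 8 of 12, 2 of 15 and 5 of 16. Their shares lay between 0.203% and 0.50%, and the highest cell under the limit had 0.0902%. The same limit was met by 58.6% of monocyte-gated and 71.7% of macrophage-gated cells, so these transcripts are shared with other myeloid cells of this tissue. The panobinostat library thus had the largest share of gated cells with these transcripts (66.7%, exact 95% interval 34.9 to 90.1). Vehicle had the largest share with tubule transcripts (70%, 34.8 to 93.3). For both kinds of transcripts the intervals of all libraries overlap. The lowest shares were 10% for patrolling monocyte transcripts in vehicle (0.253 to 44.5) and 25% for tubule transcripts in panobinostat (5.49 to 57.2). The gate's limit on Chil3, F13a1, Vcan and Ly6c2 is on genes of classical monocytes, and the gate set no limit on the 9 genes listed here. No gated cell had tubule and patrolling monocyte markers both at or above their limits.

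The remaining signals were in single cells. Haemoglobin made up 58.9% of UMIs in 1 panobinostat cell and 65.4% in 1 ruxolitinib cell. Their other UMIs numbered 1781 and 1662, below the lowest kept cell of either library. MHC class II genes made up at least 1% in 4 cells, up to 4.97% in a givinostat cell that also held all 31 Cd209a UMIs of the gated cells, a dendritic cell gene. T or natural killer cell genes passed 0.4% in 2 ruxolitinib cells, led by Gzma with 40 UMIs in 1 of them. Endothelial genes (Plvap, Emcn, Kdr, Egfl7) made up 0.525% of a vehicle cell, and podocyte genes (88 Podxl, 21 Wt1 and 17 Nphs1 UMIs) 1.32% of a givinostat cell. Scrublet, a caller of doublets (droplets with 2 cells), marked none of the 53 gated cells. It marked 0.0255%, 0.0682%, 2.30% and 0.302% of all kept cells, too few in 3 of the libraries to count as a working call. Its doublet scores were higher in the gated cells than in their libraries, with medians of 0.0654, 0.0540, 0.0665 and 0.0714 against 0.0251, 0.0357, 0.0184 and 0.0237. The library median was exceeded by 9 of 10, 10 of 12, 15 of 15 and 15 of 16 gated cells. The part of mixed droplets and free RNA in each result was not tested.

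**Figure D4:**
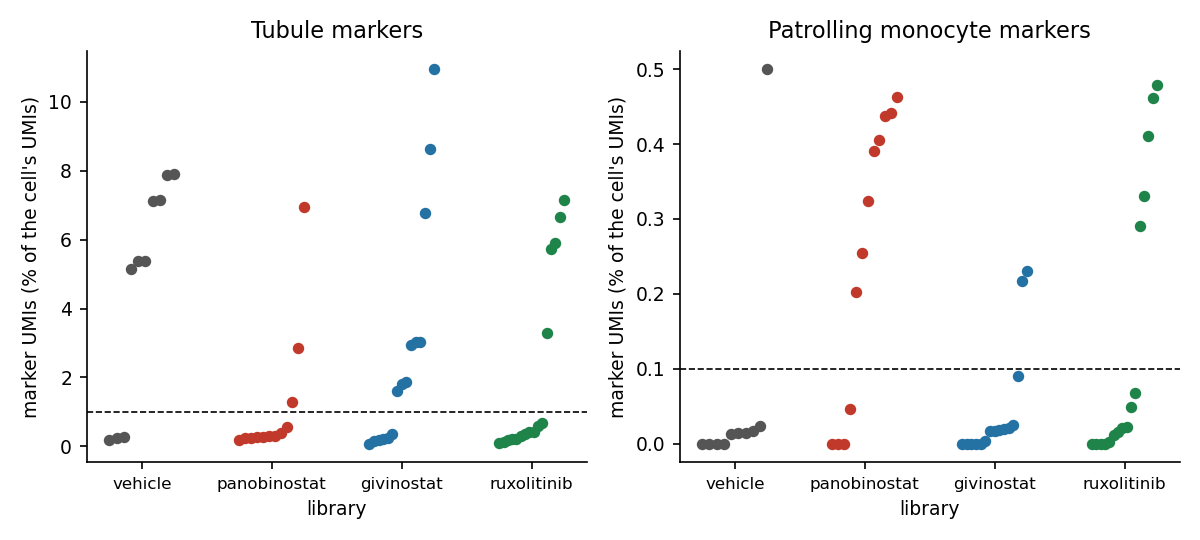
Tubule marker UMIs (left) and patrolling monocyte marker UMIs (right) as a percentage of each gated cell's UMIs (y axes) by library (x axes); each point is 1 cell, ordered by value. Dashed lines are the limits of 1% and 0.1%; 7 of 10 vehicle cells exceed the first and 8 of 12 panobinostat cells the second.

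The 7 cells without another cell type's markers were 1 vehicle, 0 panobinostat, 2 givinostat and 4 ruxolitinib cells. The 0 of 12 in panobinostat had an exact 95% interval of 0 to 26.5%. The cells were small, with 4061 to 8042 UMIs, 1478 to 2472 genes and a median mitochondrial share of 2.04%, though 1 stood at 28.1%. All 7 had UMIs of Csf3r (3 to 8), Mmp9 (2 to 13), Il1r2 (3 to 41), Hdc (1 to 10), Mxd1 (1 to 15), Clec4e (1 to 30), Il1b (6 to 138) and Cxcl2 (19 to 380). On the mean over these 7 cells, 13 of the 14 identity genes and 15 of 21 cytokine and chemokine genes were higher than in both other gates, beside 25.7% of all genes. All 7 still held 2 to 7 UMIs of Kap, so low tubule RNA was present even there. The 2 givinostat cells had the highest calprotectin of the 7 (1458 and 755 UMIs) and the highest Retnlg (340 and 100), while 3 of the 4 ruxolitinib cells had no Retnlg UMI. Il1r2 followed calprotectin in some of these cells only. The cell with 1458 calprotectin UMIs had 3 Il1r2 UMIs, and a ruxolitinib cell with 38 had 20. The cell with 755 had 41, the most of the 7. Over 47 thinned gated cells the Spearman rho of Il1r2 with calprotectin was 0.29.

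Of the measured cytokine and chemokine genes, those of interleukin 1 beta and the chemokine CXCL2 had the most UMIs in the gated cells. Both Il1b (chr2:129364570-129371139) and Cxcl2 (chr5:90903871-90905938), whose product recruits neutrophils through CXCR2, had a UMI in 52 of 53 cells. Il1b per cell had a median of 545 CPM (0 to 11417) in vehicle, 2140 (145 to 16882) in panobinostat, 2178 (277 to 4820) in givinostat and 2832 (89.4 to 32115) in ruxolitinib. The vehicle cells had the lowest median, and the ranges of all 4 libraries overlap. Cxcl2 per cell had a median of 773 CPM (0 to 15377), 2050 (289 to 35153), 1903 (85 to 9658) and 1972 (145 to 88434). In the ruxolitinib library 1 cell held 380 of 671 Cxcl2 UMIs, and the library level of 4089 CPM was 1821 CPM without it. In panobinostat 1 cell held 152 of 282, and the level of 3590 CPM was 1751 CPM without it. Beside this stands the tubule RNA, which was most frequent in the vehicle cells. Over cells, the median Il1b level was 1454 CPM in the 24 tubule-marked cells, 2150 in the 16 with patrolling monocyte transcripts and 5184 in the 7 without other markers, and for Cxcl2 it was 983, 2117 and 6186 CPM. Without the tubule-marked and haemoglobin-rich cells, 3, 8, 6 and 10 cells remained, with Il1b medians per cell of 993, 3139, 1599 and 4724 CPM, so vehicle was again the lowest. The Il1b library levels over these cells were 3120, 5154, 1906 and 5374 CPM, but 1 of the 3 vehicle cells held 49 of the 56 UMIs, and without it the vehicle level was 513 CPM. Neither gene is particular to neutrophils: thinned, Il1b was in 91.5% of gated, 34.0% of monocyte-gated and 47.8% of macrophage-gated cells. Il1b and Cxcl2 were weakly related over 47 thinned cells (Spearman rho 0.42).

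Of the 21 measured cytokine and chemokine genes, 8 had a UMI in at least 27 gated cells and 12 had a higher mean than in both other gates (background 45.9%). Besides Il1b and Cxcl2, the members with the most UMIs were Ccl6, Ccl3, Ptgs2 and Ccl4. Ccl6, a constitutive myeloid chemokine, was in 45 cells, with library levels of 393, 853, 1069 and 317 CPM. Ptgs2, the inducible cyclooxygenase that starts prostaglandin synthesis, was in 33 cells, at 102, 586, 138 and 433 CPM. Single cells held 10 of the 15 vehicle, 22 of the 46 panobinostat and 25 of the 71 ruxolitinib UMIs, and without them the Ptgs2 levels were 34.9, 334 and 287 CPM. Ccl3 was in 29 cells, and its ruxolitinib level of 670 CPM was 325 CPM without the cell that held 58 of 110 UMIs. Ccl4, in 20 cells, was more frequent in macrophage-gated cells (61.9% thinned, against 29.8%). Csf1, the macrophage growth factor, named after its values were seen, was in 32 gated cells and thinned in 53.2%, 1.34% and 3.18% of neutrophil-, monocyte- and macrophage-gated cells. The summed level of the 21 genes was 4402, 10234, 7225 and 10236 CPM, and 13930, 15316, 8207 and 20874 CPM without tubule-marked and haemoglobin-rich cells. Vehicle was the lowest in the first set of values and givinostat in the second. The second order rests on 1 of the 3 vehicle cells, without which the vehicle level was 3296 CPM and again the lowest, and without 1 cell the ruxolitinib level was 13800 CPM.

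**Figure D5:**
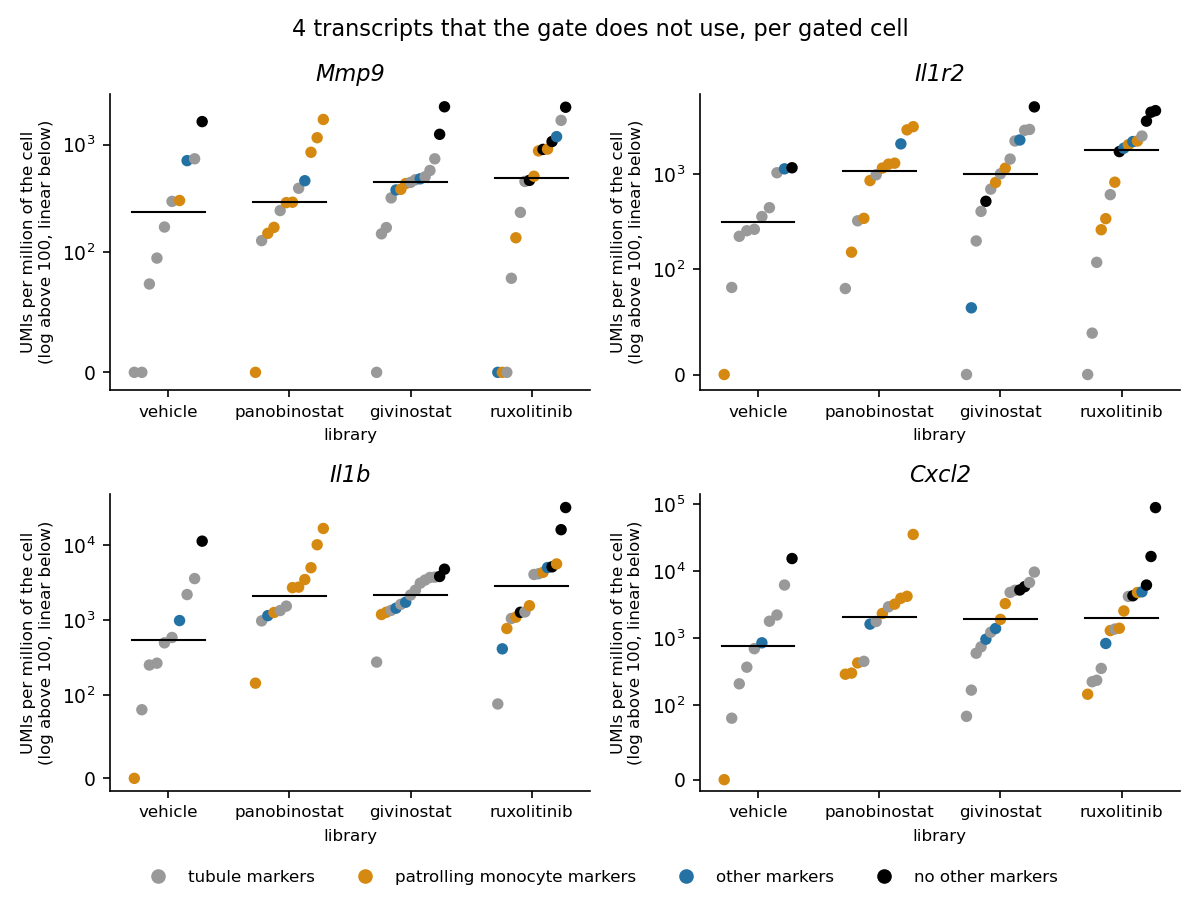
Level per gated cell (y axes, CPM within the cell, log scale above 100 and linear below) of Mmp9, Il1r2, Il1b and Cxcl2 by library (x axes). Each point is 1 cell coloured by the other markers it carries, and lines are medians; Il1b medians run from 545 CPM in vehicle to 2832 CPM in ruxolitinib, and the ranges overlap.

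Receptors that guide neutrophils to a site were broadly present. Of 19 chemoattractant and adhesion receptors all were detected, 13 in at least 27 cells, and 11 had a higher mean than in both other gates (background 45.9%). Cd44, the hyaluronan receptor, was in 52 cells, Cxcr4, the receptor for the bone marrow chemokine CXCL12, in 46, and the chemokine receptor Ccr1 in 46. Ccrl2, an atypical receptor that presents chemerin, was in 41 cells and thinned in 70.2% of them, against 21.0% of monocyte-gated and 42.5% of macrophage-gated cells. Its library levels were 589, 458, 517 and 1322 CPM, ruxolitinib being the highest, where the highest cell held 66 UMIs. Without tubule-marked and haemoglobin-rich cells the Ccrl2 levels were 1950, 605, 262 and 2875 CPM. When the 1 cell that moved each of these most was also left out, vehicle stood at 2645 and ruxolitinib at 2041 CPM. Cd14, the lipopolysaccharide co-receptor, was in 44 cells, and Itgb2, the common chain of the beta-2 integrins, in 37. Itgal, the integrin chain of LFA-1, named after its values were seen, followed the patrolling monocyte transcripts: it was in 16 of the 16 cells that carried them (median 1021 CPM) and in 5 of 7 cells without other markers (median 172 CPM).

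Most granule genes were found in a minority of gated cells. Of 11 measured genes of specific and gelatinase granules 10 were detected. Mmp9, Hp and Adam8 were the 3 in at least 27 cells (background 11.5%). A higher mean than in both other gates was found for 7 of the 11 (background 45.9%). Hp (haptoglobin) was in 42 cells but thinned also in 61.1% of monocyte-gated cells. Lcn2, an iron-trapping protein also made by injured tubule, was in 19 cells, with 2, 4, 8 and 5 by library, and Wfdc21 in 24. Mmp8, the neutrophil collagenase, was in 15 cells and thinned in 19.1%, close to the 20.5% of monocyte-gated cells. Ltf, the gene of lactoferrin, had 3 UMIs in all. Cd177 had a UMI in 1 of the 24 tubule-marked cells, in 1 of the 7 cells without other markers and in no other gated cell. Itgb2l had no UMI. Of the azurophil genes, only Prtn3 (proteinase 3) was measured, with 2 UMIs.

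Of the NADPH oxidase genes, which make the respiratory burst, Cybb was found mainly in cells with patrolling monocyte transcripts. Cyba, encoding the membrane subunit p22phox, was in 51 cells, and Rac2, the small GTPase of the complex, in 49. Cyba is not particular to neutrophils in this tissue, since 91.4% of thinned tubule-rich cells had it. Cybb, encoding the catalytic subunit gp91phox, was in 21 cells. It was in all 16 cells with patrolling monocyte transcripts (1 to 25 UMIs, median 1689 CPM), in 3 of 24 tubule-marked cells with at most 1 UMI each, in 2 of 6 others and in 0 of 7 without other markers. The 7 were chosen for few patrolling monocyte transcripts, and 3 counts of 7, or 42.9%, is the limit that the 0 sets on cells with a UMI, not on cells expressing the gene. Its library levels of 115, 853, 220 and 512 CPM were highest in panobinostat, where 8 of 12 cells carried patrolling monocyte transcripts. One cell held 16 of the 17 vehicle UMIs and another 21 of the 43 givinostat UMIs, and without them the levels were 7.09 and 124 CPM. Thinned, 93.6% of monocyte-gated and 84.7% of macrophage-gated cells had a Cybb UMI, against 36.2% of neutrophil-gated cells.

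Antibody receptors were represented mainly by their signalling chain. Fcer1g, the shared gamma chain through which activating Fc receptors signal, was in all 53 cells, at 406, 1209, 1248 and 1085 CPM. Without tubule-marked and haemoglobin-rich cells its levels were 1504, 1984, 2217 and 2181 CPM, the vehicle value resting on 3 cells. The kinases Syk and Fgr, which act downstream, were in 38 and 40 cells. Fcgr3, a low-affinity activating receptor for IgG, was in 31 cells and thinned in 40.4%, against 73.5% of macrophage-gated cells. Fcgr4 was in 17 cells and Fcgr2b, the inhibitory receptor, in 14. None of the 9 genes of this list had a higher mean than in both other gates.

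Genes of the JAK-STAT pathway, the target of ruxolitinib, were measured without a ratio, since no library reached the 20 gated cells required for one. Of 19 genes of feedback and growth factor receptors, 9 were in at least 27 cells and 7 had a higher mean than in both other gates (background 45.9%). Pim1, a STAT-induced survival kinase, was in 52 cells with a median of 356, 1435, 1150 and 1502 CPM per cell. Its level was 436 CPM by median in tubule-marked cells and 3961 CPM in the cells without other markers. Socs3, the feedback inhibitor of receptors that signal through gp130 and the G-CSF receptor, was in 35 cells, at library levels of 156, 229, 107 and 268 CPM. Junb was in all 53, Jak1 in 40 and Ifngr1 in 36. The summed level of the list was 2418, 4621, 3607 and 4284 CPM, and 8692, 7428, 5293 and 8566 CPM without tubule-marked and haemoglobin-rich cells, so the order of vehicle changed from lowest to highest. The second vehicle value rests on 3 cells and was 6152 CPM without 1 of them, below panobinostat and ruxolitinib.

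Most feedback genes of NF-kappaB were found in the larger part of the gated cells. Of 13 NF-kappaB feedback genes, 10 were in at least 27 cells and 9 had a higher mean than in both other gates (background 45.9%). Nfkbia, the inhibitor that ends an NF-kappaB pulse, was in 51 cells, at library levels of 664, 1718, 1816 and 1401 CPM. Without tubule-marked and haemoglobin-rich cells its levels were 1894, 2758, 2391 and 2369 CPM. One vehicle cell held 31 of the 34 UMIs behind the first, which was 220 CPM without it. Tnfaip2 was in 48 cells and thinned in 78.7%, against 35.5% of monocyte-gated and 12.6% of macrophage-gated cells. Of 17 genes of survival and death, 6 were in at least 27 cells and 9 had a higher mean than in both other gates, near the background. Mcl1, on which neutrophil survival depends, was in all 53 cells, at 684, 1235, 1151 and 1066 CPM. Without tubule-marked and haemoglobin-rich cells the Mcl1 levels were 2062, 1766, 1806 and 1979 CPM. Vehicle, on 3 cells, thus moved from lowest to highest. Thinned, Mcl1 was as frequent in monocyte-gated cells (93.4%, against 91.5%). Bcl2a1b, another anti-apoptotic gene, was in 43, and thinned in 72.3% of gated, 10.7% of monocyte-gated and 53.3% of macrophage-gated cells. Bcl2a1a, Bcl2a1b and Bcl2a1d are near-identical copies, so reads may be split among them and their single levels are uncertain. Nlrp3, the sensor of the inflammasome that matures interleukin 1 beta, was in 44 cells. Immediate early and stress genes, which tissue dissociation also induces, were in most gated cells (19 of 23 in at least 27 cells, background 11.5%), but 3 of 23 had a higher mean than in both other gates (background 45.9%).

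Few interferon-induced genes were widely detected, while MHC class I transcripts were in nearly all gated cells. Of 24 interferon response genes, 22 were detected, 2 of them in at least 27 cells, a share near the background of 11.5%, and 5 had a higher mean than in both other gates (background 45.9%). The 2 were Ifitm2 in 52 and Ifitm3 in 47, both restriction factors of viral entry. Ifitm3 had a median of 1948 CPM in cells with patrolling monocyte transcripts and 492 CPM in those without other markers. Isg15 was in 23 cells and Slfn4, a myeloid schlafen gene, in 21. The summed level of the 24 was 1212, 3666, 3208 and 1737 CPM, and 5628, 5613, 4969 and 3467 CPM without tubule-marked and haemoglobin-rich cells. Ruxolitinib was the lowest in the second set of values, which for vehicle rests on 3 cells. Of 6 MHC class I genes 4 were in at least 27 cells and 1 had a higher mean than in both other gates. H2-D1 and B2m were in 51 and 52 cells, with medians of 642 and 456 CPM in tubule-marked cells and 985 and 1033 CPM in those without other markers. The MHC class II level was 704, 1375, 5490 and 622 CPM. Without 1 cell in each of the last 3 libraries it was 320, 1376 and 115 CPM, and 1 givinostat cell held 300 of the 564 Cd74 UMIs.

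The histone deacetylase genes, whose products panobinostat and givinostat inhibit, had few UMIs. All 11 had a UMI, none in at least 27 cells (background 11.5%). A higher mean than in both other gates was found for 6 of them (background 45.9%). Hdac4 led with 37 UMIs in 21 cells, followed by Hdac2 with 24 in 12. Of 10 genes known to rise with histone deacetylase inhibition, Gadd45b was in 45 cells, Txnip in 35 and Gadd45a in 32. Clu, which encodes clusterin, and Mt1, a metallothionein, were highest in the givinostat cells (1172 and 624 CPM, against 20.3 CPM for each in vehicle), and both went with tubule RNA. Without the tubule-marked and haemoglobin-rich cells, Clu stood at 0, 0, 24.9 and 130 CPM and Mt1 at 111, 0, 74.7 and 14.4 CPM, on at most 9 UMIs of Clu and 6 of Mt1 in a library. Cdkn1a, the cell cycle inhibitor p21, was in 24 cells, at 122, 191, 128 and 268 CPM, the last being 163 CPM without 1 cell. Without tubule-marked and haemoglobin-rich cells its levels were 947, 363, 286 and 592 CPM. Vehicle was then the highest, on 17 UMIs in the library.

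Glycolysis genes, on which neutrophils depend for energy, were also high in tubule cells. Of 19 genes of glycolysis and low oxygen, 14 had a higher mean than in both other myeloid gates (background 45.9%), but only 5 of these were also higher than in tubule-rich cells. Gapdh was in 50 gated cells, with a median of 1128 CPM in tubule-marked cells and 870 CPM in those without other markers. Proliferation genes had few UMIs: none of 10 was in at least 27 cells (background 11.5%), and 4 had no UMI. Mki67 had 8 UMIs in 3 cells, 6 of them in 1 givinostat cell.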

How the data were processed

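Single-cell libraries were measured on total kidney cells. The deposited matrix holds counts (UMIs per gene and cell, whole numbers, not normalized), made with Cell Ranger 3.0.1 on mm10 per the submitters' processing notes; filters on cells and genes are not given in the sources used here. Cell names carry a library name, of which 3 match a drug label; the other was taken as vehicle by elimination. The 226 cells under 200 genes were left out of 16003. The gate, gene lists and limits were chosen with earlier results of these data known. The monocyte gate needed at least 4 UMIs of Chil3, F13a1, Vcan and Ly6c2, under 10 of C1q, under 2 of Cd3 and under 20 of S100a8 and S100a9, and the macrophage gate at least 10 of C1q with the same Cd3 and calprotectin limits. No doublet was removed.

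Library levels are UMIs summed over gated cells per 1000000 UMIs (CPM). Thinning drew 4351 UMIs per cell without replacement (the 10th percentile of gated cells). Intervals are exact at 95%, and those of shares and share ratios were tested on simulated data. The limit that a count of 0 sets on Cybb is 3 counts of the total. Ratios of genes between libraries needed 20 gated cells in both, which no library reached, so no gene ratio, list ratio or count of changed genes is given. The naming rule took the 6 gate genes, of every list described the 6 with most UMIs, and markers of other cells; its part on ratios gave none. Further genes were picked with their values known. Some genes that the rule names are left out here. Motifs were searched in the RefSeq promoter table, which gave 2 of the genes looked for. Python 3.11.15, numpy 2.4.6, scipy 1.17.1, pandas 2.3.3 and scanpy 1.11.5 (Scrublet) were used. Alternatives were other gate minimums, stricter cell filters, common UMI floors, and cells with doublet calls or tubule markers left out.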

Additional observations from a re-analysis of the deposited data

How the results depend on the processing

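Of 30 values of the share ratios under other settings, 28 stayed within the interval of the reported ratio, and none of the 33 intervals excluded 1. The panobinostat ratio went from 1.07 to below 1 with a calprotectin minimum of 10 (0.766), the stricter cell filter (0.94), the common UMI floor (0.579) and the common fraction of the median UMI count (0.992). With tubule-marked cells left out, 3, 9, 6 and 11 cells gave ratios of 2.68, 2.26 and 3.62. With only the 7 cells without other markers, a setting chosen after the data were seen, the ratios were 0, 2.26 and 3.95, of which 0 for panobinostat and 3.95 for ruxolitinib lay outside the reported intervals; by its construction 1 vehicle cell was left. A calprotectin minimum of 50 left 6 vehicle and 14 givinostat cells and a ratio of 2.64. The ruxolitinib ratio was 1.02 under the common UMI floor. Tubule-marked cells were 45.3% of gated cells, and 35.3% to 56.4% under the other settings. Cells with patrolling monocyte transcripts were 30.2%, and 55.2% once tubule-marked cells, which held none of them, were left out. Of 130 percentages of cells with a UMI of 13 genes, 119 stayed within the interval of the reported value. Of 71 library levels of named genes and lists, 20 stayed within their counting interval when the gated cell that moved each most was left out, a setting added after the data were seen. Results on gene ratios, list medians and counts of changed genes were not run under any setting, since none brought the vehicle library to 20 gated cells. No paired analysis was possible because each group has 1 library, and no replicate could be left out. With 10 to 16 cells per library, differences in share below about the width of the intervals were not detectable.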
